A study of Mus musculus with 47 samples.

Results

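The 30 genes described here are textbook genes of lymphocytes, 10 of T cells, 14 of natural killer (NK) and cytotoxic cells and 6 of B cells, measured in the whole liver of 47 mice. Each gene was read from 1 microarray probe, the brightest of those that carried its name, among 37074 gene names on the array. A total of 25 members were measured well enough to be tested, 9 of T cells, 12 of NK and cytotoxic cells and 4 of B cells, among 21737 tested gene names. The values are log2 normalized intensities of 1 array per mouse, so a difference of 1 is a doubling of the signal.

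The study asked how the pregnane X receptor (PXR, gene Nr1i2), a nuclear receptor that senses foreign compounds in the liver, and the gut microbiota act together on the liver of male and female mice. Littermate Pxr+/+ and Pxr-/- C57BL/6J mice, the latter lacking PXR in the whole body, were bred from heterozygous parents, and from an age of 5 weeks each cage held a single sex and genotype. At 6 months of age mice drank plain water (Cont) or, for 2 weeks, water with the broad-spectrum antibiotics ampicillin at 1 g/L, neomycin at 1 g/L and vancomycin at 0.5 g/L (ATB), and all were killed 6 h after lights on. The 8 groups of sex, genotype and treatment held 6 mice each, apart from male Pxr-/- Cont with 5 arrays. Each group was kept in 2 cages, and which of the mice on the arrays shared a cage is not given in the sources used here, so that a group's spread may include that of its cages.

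T cells recognise antigen through a receptor whose signal is carried by the CD3 chains and passed on by the kinases Lck and Zap70. NK cells carry no such receptor, and weigh activating against inhibitory receptors before they kill with granules of perforin and granzymes, which cytotoxic T cells use as well. B cells signal through the immunoglobulin-associated chains Cd79a and Cd79b. The liver is known for lymphocytes that patrol its sinusoids, many of them NK cells, NKT cells and other innate-like T cells, so that T and NK genes are read together in a tissue made mostly of hepatocytes. In whole tissue, fewer cells of a type and less RNA per cell cannot be told apart.

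The arrays of females were brighter than those of males, with an upper quartile of intensity of 333 to 492.5 (median 414) in 24 females against 306 to 417 (median 369.5) in 23 males. Between 31067 and 34458 probes per array were well above background. The probe of Nr1i2 itself read 11.24 to 12.41 in Pxr+/+ mice and 10.36 to 11.89 in Pxr-/- mice, ranges that overlapped. Whether that probe lies in the deleted part of the gene is not given in the sources used here, so it does not check the genotype labels.

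Of the 30 genes 5 were too dim to test. Cd8a, the co-receptor of cytotoxic T cells, was well above background on 6 of 47 arrays, of which 5 were of females. Eomes, a T-box factor of NK cells, passed on 2 arrays, both of female Pxr+/+ Cont mice, and Cd79a on 1. Ncr1, an activating receptor of NK cells, and Blk, a kinase of B cells, passed on 0 arrays. Of the tested genes 4 were dim in part, with Cd3g well above background on 46 arrays, Gzmb on 42, Klrb1c on 39 and Xcl1 on 35, and the missing arrays were all of males. No group lacked any of the 25 tested genes on all of its arrays.

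More of these genes were called for sex than for genotype or antibiotics. Of the 25 tested members, 19 were higher in females over the 4 female against male comparisons as 1 average, by 0.44 (Ms4a1) to 1.22 (Gzma) on the log2 scale, and 1, Cd4, was lower. The T and NK genes made up 17 of the 19. One of them, Xcl1, had enough arrays above background to be tested in females only, so that it was kept through the sex in which it is high, and without it 18 of 24 genes were higher. A gene was called when its adjusted p was 0.05 or less and its fold change above 1.2. Among all tested genes 23.6% were called higher and 3.32% lower in females in the same comparison, and the median over all of them was 0.14. Set against that, the median sex difference was 0.77 for the 9 T genes, 0.91 for the 12 NK and cytotoxic genes and 0.31 for the 4 B genes. The difference between the classes was not tested.

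**Figure D1:**
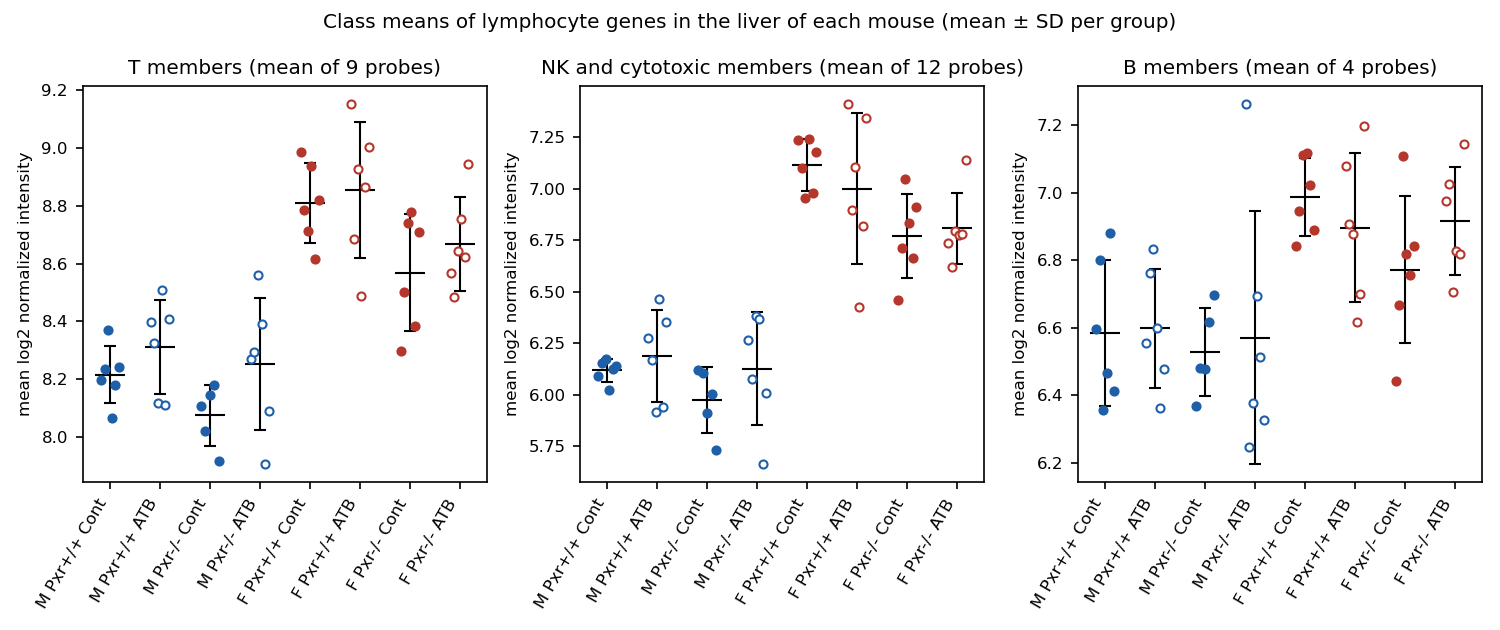
Mean log2 normalized intensity of the 9 T, 12 NK and cytotoxic and 4 B genes in the liver of each mouse (points; males blue, females red; Cont filled, ATB open), with the mean and SD of each of the 8 groups (bars; n = 6, 5 in male Pxr-/- Cont). Group means of the NK and cytotoxic genes lie between 5.97 and 6.19 in males and between 6.77 and 7.12 in females, while those of the B genes lie at 6.53 to 6.60 and 6.77 to 6.99.

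The probes for the receptor chains of T cells split by gene. Cd3d, the delta chain of CD3 (probe at chr9:44794452-44794511, mm9), read 6.30 to 6.63 (median 6.50) in male Pxr+/+ Cont mice and 7.20 to 7.75 (median 7.54) in the females of that group. With ATB the Pxr+/+ values were 6.06 to 6.79 (median 6.54) in males and 6.96 to 7.87 (median 7.47) in females. In Pxr-/- mice they were 6.07 to 6.46 (median 6.20) in Cont males, 6.65 to 7.34 (median 7.12) in Cont females, 5.99 to 6.84 (median 6.57) in ATB males and 6.88 to 7.73 (median 7.22) in ATB females. Every female lay above every male of the same genotype and treatment in all 4 comparisons. The mean of the 4 differences was 0.89 with a standard error (SE) of 0.08 (limma, adjusted p = 8.65e-13), a fold change of 1.85, and the second probe of the gene gave 0.80.

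Group means are given from here in a fixed order, Pxr+/+ Cont, Pxr+/+ ATB, Pxr-/- Cont and Pxr-/- ATB. Cd3g, the gamma chain, whose gene lies beside Cd3d on chromosome 9, averaged 5.51, 5.67, 5.48 and 5.65 in males and 6.57, 6.61, 6.33 and 6.38 in females, with SDs of 0.20 to 0.51 within groups. Its sex difference was 0.89 (SE 0.09, adjusted p = 2.45e-11). Cd3e, the epsilon chain of the same complex and gene cluster, did not follow: its probe read 8.65 to 9.18 in males and 8.48 to 9.14 in females, and the difference of -0.09 (SE 0.04) was not called. Cd247, the zeta chain, read 8.34 to 9.26 in males and 8.35 to 9.33 in females, again a difference of -0.09 (SE 0.07, adjusted p = 0.223). The second probe of Cd3e gave -0.00 and the second brightest of the 4 probes of Cd247 gave 0.05, and neither was called. After group and wash batch means were removed, Cd3e had a median Pearson's r of 0.08 with the other T and NK genes. That of Cd247 was -0.10 and that of Cd3d 0.68. Whether the probes of Cd3e and Cd247 track T cell transcripts was not tested.

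The kinases below the receptor were higher in females. Lck, which phosphorylates the CD3 chains, read 6.76 to 7.36 (median 7.21) in male Pxr+/+ Cont mice and 7.81 to 8.43 (median 8.26) in the females. It read 6.72 to 7.64 (median 7.28) and 7.22 to 8.69 (median 8.15) in Pxr+/+ ATB males and females, 6.73 to 7.08 (median 6.92) and 7.10 to 8.09 (median 7.81) in Pxr-/- Cont, and 6.53 to 7.62 (median 7.25) and 7.68 to 8.30 (median 7.84) in Pxr-/- ATB. Females lay above males without overlap in 3 of the 4 comparisons and overlapped them in Pxr+/+ ATB. The mean difference was 0.87 (SE 0.09, adjusted p = 2.38e-10). Zap70, the kinase that docks on phosphorylated CD3 chains, averaged 11.41, 11.44, 11.12 and 11.50 in males and 12.22, 12.29, 12.02 and 12.01 in females (SDs of 0.17 to 0.52), a difference of 0.77 (SE 0.11, adjusted p = 1.73e-07). It was called in 3 of the 4 comparisons and not in Pxr-/- ATB, and its second probe gave 0.75.

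Of the surface molecules of T cells, Il7r and Cd2 were higher in females and Cd4 was not. Il7r, the receptor that T cells need for survival on interleukin-7, averaged 6.25, 6.21, 6.01 and 6.06 in males and 7.04, 7.32, 7.06 and 6.996 in females (SDs of 0.23 to 0.48), the widest difference among the T genes at 0.97 (SE 0.10, adjusted p = 4.43e-11). Cd2, an adhesion molecule of T and NK cells, averaged 6.21, 6.13, 5.93 and 6.08 in males and 6.95, 6.88, 6.55 and 6.64 in females (SDs of 0.09 to 0.44), a difference of 0.67 (SE 0.09, adjusted p = 1.43e-08). Its 2 probes, which overlap on the genome, gave 0.67 and 0.72.

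Cd4, the co-receptor of helper T cells that some myeloid cells also carry, went the other way. It averaged 13.30, 13.76, 13.34 and 13.56 in males and 13.17, 13.38, 12.99 and 13.35 in females, with SDs of 0.22 to 0.61. The mean sex difference was -0.27 (SE 0.10, adjusted p = 0.0208), a fold of 1.21 that passed the minimum of 1.2 narrowly. None of the 4 comparisons called it by itself, its second brightest probe gave 0.08 (adjusted p = 0.123), and the call was lost without any 1 of 13 arrays, where the difference was -0.26 to -0.21. It was also lost with slide as a block (-0.26), the replicate number as a block (-0.26), spike-in scaling (-0.25) and the mean of its probes (-0.10).

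Of the granule genes of NK and cytotoxic T cells, Gzma, Gzmb and Nkg7 were higher in females and Prf1 was not called. Gzma, a granzyme with the widest sex difference of the 25 genes, was read by a probe at chr13:113884035-113884094 (mm9). In Pxr+/+ Cont mice it read 6.53 to 7.21 (median 6.70) in males and 7.99 to 8.49 (median 8.19) in females, and with ATB 6.74 to 7.53 (median 6.87) and 7.11 to 8.63 (median 8.25). In Pxr-/- Cont mice it read 6.26 to 7.39 (median 6.31) in males and 7.17 to 8.20 (median 7.82) in females, and with ATB 5.95 to 7.21 (median 6.68) and 7.47 to 7.86 (median 7.69). The sexes overlapped in Pxr+/+ ATB and in Pxr-/- Cont, in the latter through a single male at 7.39, and did not overlap in the other two comparisons. The mean difference was 1.22 (SE 0.11, adjusted p = 2.74e-12), a fold change of 2.33.

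Gzmb, the granzyme that cleaves caspases in the target cell (probe at chr14:56877916-56877975, mm9), separated the sexes in full. All 24 females, at 5.60 to 6.54, lay above all 23 males, at 4.71 to 5.50, and the share of all tested genes that did so is not given here. Its medians in males were 5.03, 5.10, 4.92 and 5.13, and in females 6.29, 6.01, 5.92 and 5.82, with group SDs of 0.11 to 0.25. The difference of 0.95 had an SE of 0.06 and the lowest adjusted p of the 25 genes, 6.99e-18 (limma). In males 18 of 23 arrays were well above background and in females 24 of 24, so the male values lay near the limit of the array.

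Nkg7, a membrane protein of cytotoxic granules, read 6.40 to 6.70 (median 6.50) in male and 7.39 to 7.95 (median 7.81) in female Pxr+/+ Cont mice. With ATB the Pxr+/+ values were 6.10 to 7.08 (median 6.67) and 6.90 to 8.01 (median 7.73). In Pxr-/- mice they were 5.98 to 6.52 (median 6.33) and 6.81 to 7.70 (median 7.32) in Cont, and 5.86 to 6.96 (median 6.65) and 7.12 to 7.71 (median 7.38) in ATB males and females. The sexes overlapped in Pxr+/+ ATB and in no other of the 4 comparisons. The mean difference was 1.01 (SE 0.09, adjusted p = 4.30e-13), a fold of 2.02. Prf1, the perforin that opens the membrane for these proteases, read 6.40 to 6.86 in males and 6.46 to 7.52 in females, and its difference of 0.19 (SE 0.06, adjusted p = 0.00897) stayed below the fold minimum.

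The lectin receptors of NK cells Klrd1, Klrk1 and Klrb1c were higher in females over the 4 comparisons. Klrd1, which pairs with inhibitory and activating lectin receptors, averaged 5.43, 5.48, 5.21 and 5.39 in males and 6.47, 6.31, 6.28 and 6.16 in females (SDs of 0.12 to 0.38). The sexes did not overlap within any of the 4 comparisons, and the mean difference was 0.93 (SE 0.07, adjusted p = 2.27e-15). Klrk1, an activating receptor for stress-induced ligands (probe at chr6:129562442-129562501, mm9), averaged 6.11, 6.10, 5.81 and 6.10 in males and 7.14, 6.98, 6.56 and 6.72 in females (SDs of 0.08 to 0.41), a difference of 0.82 (SE 0.08, adjusted p = 3.51e-12). Its dimmer second probe, well above background on 30 arrays, gave 0.45. Klrb1c, the lectin receptor that carries the NK1.1 antigen, averaged 4.92, 4.90, 5.22 and 5.00 in males and 5.69, 5.55, 5.73 and 5.58 in females (SDs of 0.10 to 0.67), a difference of 0.63 (SE 0.10, adjusted p = 1.09e-06).

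Klrb1c was called in 3 of the 4 comparisons. The exception was Pxr-/- Cont, where its difference was 0.51 and 1 male, replicate 2, read 6.41 against 4.85 to 4.98 in the other males of the group. Without that male the difference was 0.83. It was picked for its value, so this difference is a description and is not counted as a call. Male Pxr-/- Cont, with all 5 arrays well above background, was also the only male group with enough such arrays for the test. The other male groups had 3 or 4.

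Cytokine and chemokine genes shared the direction. Il2rb, the chain of the interleukin-2 and interleukin-15 receptors on which NK cells depend, averaged 6.24, 6.27, 5.99 and 6.15 in males and 7.23, 7.26, 6.93 and 6.96 in females (SDs of 0.22 to 0.55), a difference of 0.93 (SE 0.11, adjusted p = 2.57e-09). Cxcr6, a chemokine receptor of T and NKT cells that patrol the sinusoids, averaged 6.98, 7.06, 6.80 and 7.03 in males and 8.02, 8.01, 7.57 and 7.84 in females (SDs of 0.22 to 0.42), a difference of 0.90 (SE 0.09, adjusted p = 7.93e-11). Their second probes gave 0.92 and 0.91.

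Ccl5, a chemokine made by activated T and NK cells, read 8.63 to 8.90 (median 8.74) in male and 9.79 to 10.91 (median 10.04) in female Pxr+/+ Cont mice. With ATB the Pxr+/+ values were 8.25 to 9.89 (median 9.04) and 9.43 to 10.38 (median 10.11). In Pxr-/- mice they were 8.03 to 8.82 (median 8.53) and 8.85 to 10.17 (median 9.48) in Cont, and 8.12 to 9.26 (median 8.88) and 9.22 to 10.00 (median 9.51) in ATB males and females. The sexes did not overlap in either Cont comparison and overlapped in both ATB comparisons. The mean difference was 1.06 (SE 0.11, adjusted p = 5.78e-11), a fold of 2.08. Xcl1, a chemokine that draws dendritic cells to NK cells, averaged 4.71, 4.82, 4.68 and 4.92 in males and 5.50, 5.44, 5.24 and 5.36 in females (SDs of 0.12 to 0.47), a difference of 0.60 (SE 0.08). With 11 of 23 male and 24 of 24 female arrays well above background, it was tested only through the females, and most male values were not well above background, so that its difference is given as a description.

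Tbx21, the T-box factor that drives the cytotoxic programme, averaged 5.27, 5.40, 5.26 and 5.28 in males and 6.10, 6.12, 5.67 and 5.91 in females (SDs of 0.17 to 0.37). The mean difference was 0.65 (SE 0.08, adjusted p = 6.91e-09), and the gene was called in 3 of the 4 comparisons, the exception being Pxr-/- Cont at 0.40.

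**Figure D2:**
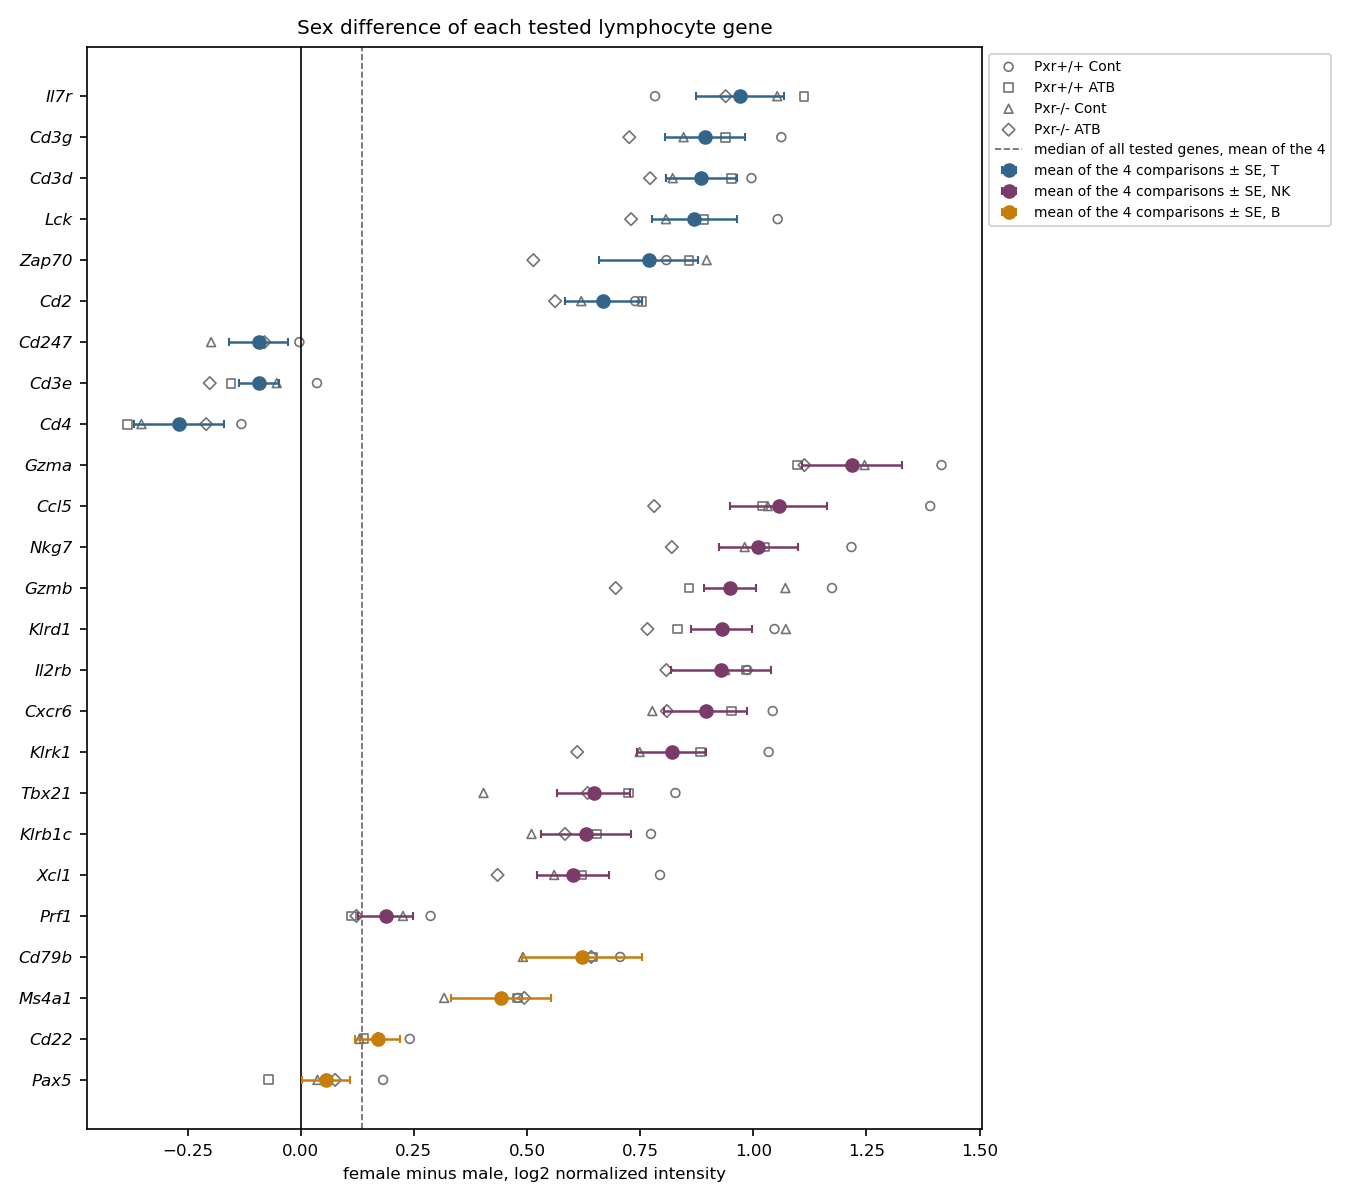
Female minus male difference in log2 normalized intensity of the 25 tested genes, grouped as T (blue), NK and cytotoxic (purple) and B (orange). Filled points with bars are the mean of the 4 comparisons ± SE, open symbols the 4 comparisons, and the dashed line the median of all tested genes, 0.14. The T and NK genes reach from 0.60 (Xcl1) to 1.22 (Gzma), apart from Cd4, Cd3e, Cd247 and Prf1, which lie between -0.27 and 0.19.

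Of the 4 tested B cell genes, Cd79b and Ms4a1 were higher in females, and Cd22 and Pax5 were not called. Cd79b, the beta chain that carries the signal of the B cell receptor, read 6.61 to 7.62 (median 7.29) in male and 7.53 to 8.20 (median 7.83) in female Pxr+/+ Cont mice. With ATB the Pxr+/+ values were 6.14 to 7.39 (median 7.04) and 7.03 to 8.22 (median 7.62). In Pxr-/- mice they were 6.53 to 7.31 (median 6.96) and 6.78 to 7.93 (median 7.58) in Cont, and 6.19 to 8.67 (median 6.71) and 7.41 to 8.00 (median 7.63) in ATB males and females. The sexes overlapped in all 4 comparisons. The mean difference was 0.62 (SE 0.13, adjusted p = 1.39e-04), and the gene was called in Pxr+/+ Cont alone, where the call (0.71, adjusted p = 0.0342) was lost without any 1 of 6 arrays, 3 of each sex (male replicates 3, 4 and 6 and female replicates 3, 4 and 5, 0.59 to 0.72, adjusted p of 0.0508 to 0.0926).

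Ms4a1, the CD20 antigen of B cells, averaged 5.82, 5.67, 5.69 and 5.67 in males and 6.30, 6.15, 6.00 and 6.17 in females, with SDs of 0.23 to 0.77. Its difference of 0.44 (SE 0.11, adjusted p = 9.01e-04) was called over the 4 comparisons together and in none of them alone, and its second probe gave 0.08 (adjusted p = 0.181). One male Pxr-/- ATB mouse, replicate 1, read 8.67 for Cd79b and 7.07 for Ms4a1, above every female for both. With all mice neither gene was called in Pxr-/- ATB. Without this male the sex difference there was 0.98 for Cd79b and 0.78 for Ms4a1. The male was picked for its values, so these differences are a description and are not counted as calls. The remaining tested B cell genes were not called. Cd22, an inhibitory receptor, read 7.72 to 8.28 in males and 7.83 to 8.50 in females (0.17, SE 0.05), and Pax5, the factor that fixes B cell identity, read 5.04 to 5.82 and 5.29 to 5.91 (0.06, SE 0.05).

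By comparison, 18 of the 25 genes were called higher in females among Pxr+/+ Cont mice (29.9% of all tested genes), 15 among Pxr-/- Cont (13.7%), 17 among Pxr+/+ ATB (9.04%) and 16 among Pxr-/- ATB (23.2%), and 0 were called lower in any of them. Each of these counts includes Xcl1. Cd3e was called lower in Pxr-/- ATB females in the authors' table (-0.31, adjusted p = 0.0146) and, at -0.45 to -0.41, under quantile normalization, normexp with quantile normalization and processed signals, the last of which also called it in Pxr+/+ Cont (-0.28, adjusted p = 0.0313). All 14 genes called higher in each of the 4 comparisons, Xcl1 among them, were T or NK and cytotoxic genes. Females lay above males without overlap for 15 genes in Pxr+/+ Cont (16% of all tested genes), 12 in Pxr-/- Cont (5.71%), 6 in Pxr+/+ ATB (4.4%) and 6 in Pxr-/- ATB (8.67%). Cd3d, Gzmb and Klrd1 did so in all 4, and 8 genes in none. All 19 genes higher in females over the 4 comparisons were so within each of the 3 wash batches, by 0.25 to 1.80. The shares of all tested genes called in all 4 comparisons, without overlap in all 4, or higher in each batch are not given here.

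The split of all genes between the sexes depended on the scaling, and so did the size of the differences of the 25 genes. Quantile normalization, which gives every array the same distribution, moved the median sex difference of all tested genes from 0.14 to -0.01, and the share of all calls that were higher in females from 87.7% to 58.7%. The same 19 genes were called higher under it, by 0.30 to 1.04, and 3 were called lower, Cd4, Cd3e (-0.27) and Cd247 (-0.27), as they were with processed signals (-0.48, -0.31 and -0.29). Under normexp background correction with quantile normalization 16 of the 19 were called, by 0.17 (Ms4a1, not called) to 0.86 (Gzma) over the 19, and the medians of the T, NK and cytotoxic and B genes fell to 0.47, 0.48 and 0.07. The calls it lost were those of Ms4a1, Klrb1c (0.25) and Xcl1 (0.22). Before either change of scaling, and relative to the median of all tested genes, the medians of the classes were 0.63 for T, 0.78 for NK and cytotoxic and 0.17 for B genes.

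Promoters are shown for genes that differed between the sexes together, Gzma and Nkg7 with the widest differences among granule genes and Cd3d and Cd3g as neighbours in the CD3 cluster. Each line holds the 250 bases before the start site in the direction of transcription, from RefSeq (GRCm38.p6). Capitals mark 3 motif cores, searched on both strands, from families of factors with known roles in lymphocytes. The RUNX core was searched as TGTGGT. The core of T-box factors, the family of Tbx21, was searched as GGTGTG. The ETS core was searched as CAGGAA.
Gzma, chr13:113100982-113101231, minus strand: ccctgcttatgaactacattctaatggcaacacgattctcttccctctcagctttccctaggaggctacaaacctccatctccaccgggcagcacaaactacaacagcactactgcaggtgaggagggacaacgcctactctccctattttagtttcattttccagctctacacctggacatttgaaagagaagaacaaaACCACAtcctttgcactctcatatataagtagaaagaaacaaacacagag
Nkg7, chr7:43436888-43437137, plus strand: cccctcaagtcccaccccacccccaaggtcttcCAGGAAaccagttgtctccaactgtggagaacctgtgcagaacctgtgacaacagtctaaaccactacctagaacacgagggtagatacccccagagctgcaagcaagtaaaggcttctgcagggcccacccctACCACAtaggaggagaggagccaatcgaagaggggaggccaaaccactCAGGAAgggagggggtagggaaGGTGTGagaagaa
Cd3d, chr9:44981536-44981785, plus strand: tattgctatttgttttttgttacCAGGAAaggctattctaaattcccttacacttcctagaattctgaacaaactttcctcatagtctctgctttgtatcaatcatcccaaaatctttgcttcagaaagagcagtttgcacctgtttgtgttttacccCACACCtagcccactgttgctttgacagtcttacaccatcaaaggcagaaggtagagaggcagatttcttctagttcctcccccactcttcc
Cd3g, chr9:44980432-44980681, minus strand: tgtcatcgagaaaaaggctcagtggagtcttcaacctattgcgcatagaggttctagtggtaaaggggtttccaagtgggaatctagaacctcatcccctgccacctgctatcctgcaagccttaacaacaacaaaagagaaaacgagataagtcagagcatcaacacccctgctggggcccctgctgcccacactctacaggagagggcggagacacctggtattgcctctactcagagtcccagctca
Gzma held a RUNX core, Nkg7 held all 3 kinds, Cd3d a T-box and an ETS core, and Cd3g none in this window. Promoters of 300 bases, 250 before and 50 after the start site, were listed for 22 of the 30 genes. A RUNX core stood in 12 of the 22, against 16.8% of all 32851 listed promoters, a T-box core in 4 (19.0%) and an ETS core in 15 (30.6%). Lck, Ncr1 and Zap70 had several promoters and were counted when any held the core, and in 1 promoter of Zap70 a RUNX and an ETS core overlapped. Of the 13 T and NK genes with a listed promoter that were higher in females, 10 held a RUNX core, 4 a T-box core and 10 an ETS core. These matches are a description of the letters only.

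Few of these genes differed by genotype, and those that were called, Klrk1, Ccl5 and Gzma, were lower in Pxr-/- mice. They are too few to be read as a trait of the NK and cytotoxic genes. In female Cont mice Klrk1 was lower, the only 1 of 25 genes called, where 2.98% of all tested genes were called lower. It read 7.04 to 7.41 (median 7.08) in Pxr+/+ and 6.16 to 6.94 (median 6.51) in Pxr-/- females, with no overlap, which held for 1.64% of all tested genes. The difference was -0.59 (SE 0.15, adjusted p = 0.0247), a fold of 1.50, and -0.72, -0.40 and -0.53 within the 3 wash batches, the last of which held 1 array per group. In male Cont mice Klrk1 read 5.99 to 6.21 (median 6.12) in Pxr+/+ and 5.70 to 5.91 (median 5.83) in Pxr-/-, again with no overlap (0.52% of all tested genes), but its difference of -0.30 (SE 0.16) had an adjusted p of 0.997 and was not called. With ATB the genotypes overlapped, at 5.76 to 6.38 and 5.54 to 6.40 in males and at 6.46 to 7.42 and 6.36 to 7.16 in females.

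Over the 4 genotype comparisons together 3 genes were called lower in Pxr-/- mice, and 3.23% of all tested genes were. Ccl5 was lower by 0.42 on the log2 scale (difference -0.42, SE 0.11, adjusted p = 0.0113), Gzma differed by -0.37 (SE 0.11, adjusted p = 0.0290) and Klrk1 by -0.29 (SE 0.08, adjusted p = 0.0135). The dimmer second probe of Klrk1 gave -0.13 (limma, adjusted p = 0.124). Klrk1 was below the fold minimum and not called in the authors' table (-0.25) and with the mean of its probes (-0.21). Ccl5 differed by -0.65 in Cont females (adjusted p = 0.0749), -0.49 in ATB females, -0.29 in Cont males and -0.25 in ATB males, none of them called. For Gzma the 4 values were -0.45, -0.36, -0.28 and -0.38. Within the wash batches Ccl5 differed by -0.25, -0.38 and -0.97, Gzma by -0.16, -0.50 and -0.65 and Klrk1 by -0.33, -0.07 and -0.59, the last batch holding 8 arrays.

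**Figure D3:**
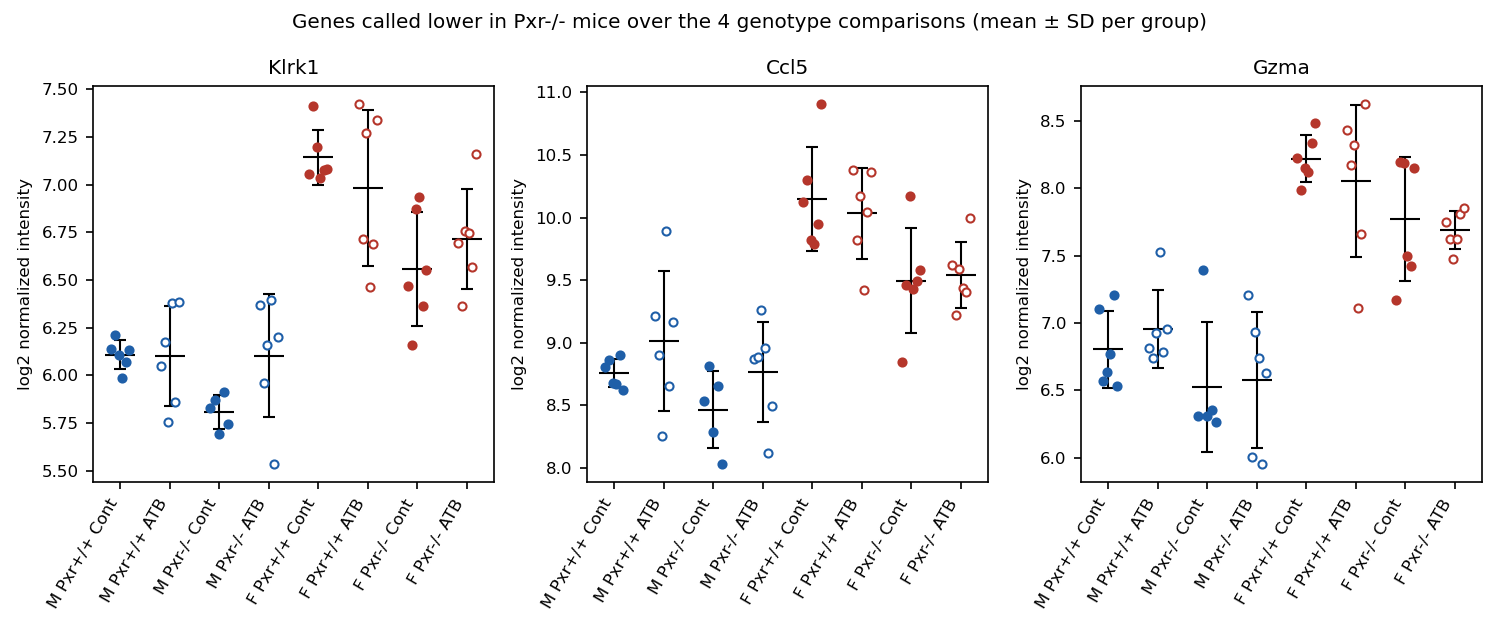
Log2 normalized intensity of Klrk1, Ccl5 and Gzma in the liver of each mouse (points; males blue, females red; Cont filled, ATB open), with the mean and SD of the 8 groups (n = 6, 5 in male Pxr-/- Cont). Klrk1 in female Cont mice lies at 7.04 to 7.41 in Pxr+/+ and 6.16 to 6.94 in Pxr-/-, while the genotypes overlap for Ccl5 and Gzma.

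No member was called for genotype in male Cont (0.189% of all tested genes called), male ATB (0.902%) or female ATB mice (0.207%), where 0, 0 and 1 of the 25 genes had an unadjusted p under 0.05 (limma). In female Cont mice 10 of 25 did. The shares of all tested genes under that unadjusted threshold are not given here, so these counts have no background beside them. The median genotype difference there was -0.20 for T, -0.37 for NK and cytotoxic and -0.19 for B genes, beside -0.12 for all tested genes. These calls depended on the scaling. Under quantile normalization, scaling on spike-in transcripts, processed signals and normexp with quantile normalization, no member was called for genotype, and Klrk1 in female Cont mice stood at -0.45 (adjusted p = 0.0856), -0.56 (0.0747), -0.53 (0.146) and -0.33 (0.0777). Without replicate 2 of female Pxr+/+ Cont, or replicate 2 or 5 of female Pxr-/- Cont, its adjusted p was 0.0665 to 0.0971.

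No gene of the 25 was called for antibiotics in any of the 4 comparisons or over them together. The shares of all tested genes called were 1.04% in male Pxr+/+, 0.11% in male Pxr-/-, 0.0138% in female Pxr+/+ and 0.0276% in female Pxr-/- mice, and 2.35% over the 4 together. At an unadjusted p under 0.05 (limma) there were 4, 2, 1 and 0 members, and 3 over the 4 together, with the shares of all tested genes not given here. The median difference, ATB minus Cont, was 0.07, 0.22, 0.01 and 0.09 for the T genes, 0.05, 0.21, -0.14 and 0.04 for the NK and cytotoxic genes and 0.03, 0.04, -0.09 and 0.15 for the B genes, beside 0.10, 0.02, -0.06 and 0.05 for all tested genes. The nearest to a call was Cd4, whose difference over the 4 comparisons was 0.31 (SE 0.10, adjusted p = 0.0524), with 0.46 and 0.22 in Pxr+/+ and Pxr-/- males and 0.21 and 0.36 in females. It was called with only probes above background on all arrays (adjusted p = 0.0487), with slide as a block (0.0444) and with the replicate number as a block (0.0375).

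The difference between effects was tested for the same 25 genes. Neither the genotype effect between the sexes in Cont (0.023% of all tested genes called) or ATB mice (0.046%), nor the antibiotic effect between the genotypes in males (0.0184%) or females (0.0%), nor the antibiotic effect between the sexes in Pxr+/+ (0.0414%) or Pxr-/- mice (0.0046%) was called for any of them. Of the 150 such differences 1 had an unadjusted p under 0.05, and the lowest adjusted p was 0.392 (limma). The genotype call of Klrk1 in female Cont mice is therefore not shown to differ from its value in males.

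Within groups, the T and NK genes that were higher in females also varied together from mouse to mouse. After the group and wash batch means were taken off, Lck and Nkg7 had a Pearson's r of 0.92 over 47 mice (Spearman's rho 0.92), Lck and Il2rb 0.90 (0.85), Cd3d and Nkg7 0.90 (0.92) and Cd3d and Lck 0.89 (0.92). The median r over all 136 pairs of the 17 T and NK genes, those other than Cd3e, Cd247, Cd4 and Prf1, was 0.56, with a range of -0.09 to 0.92. The B genes Cd79b and Ms4a1 formed a pair of their own at 0.91 (rho 0.87), with a median r of 0.24 to those 17 genes. Cd3e, Cd247, Cd4, Prf1, Pax5 and Cd22, which were not called higher in females, had a median r of 0.02 to the 17. These points share array brightness and RNA sample, genes are not independent, and after quantile normalization Lck and Nkg7 had an r of 0.92 and Cd79b and Ms4a1 of 0.89.

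**Figure D4:**
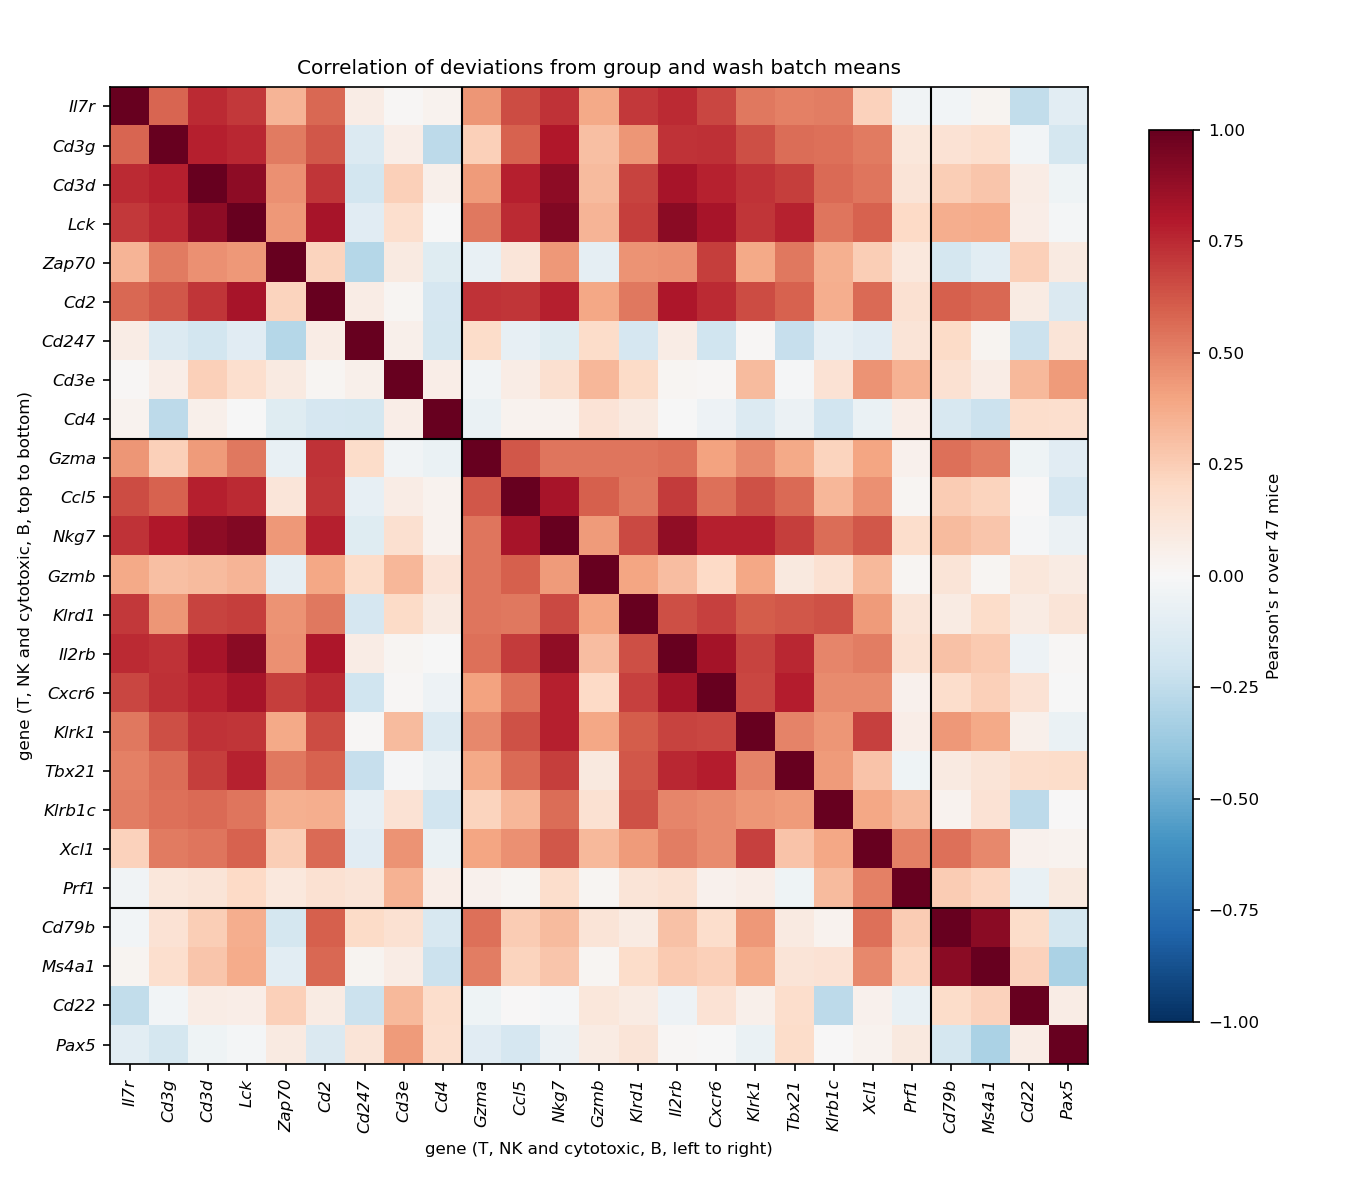
Pearson's r between the 25 tested genes over 47 mice, after the means of group and wash batch were removed (red positive, blue negative; lines separate T, NK and cytotoxic, and B genes). The 17 T and NK genes other than Cd3e, Cd247, Cd4 and Prf1 have a median of 0.56 among them. With the other T and NK genes Cd3e, Cd247, Cd4 and Prf1 have medians of 0.08, -0.10, -0.03 and 0.12, though Prf1 and Xcl1 reach 0.505. Cd79b with Ms4a1 (0.91) form a separate block.

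Further genes of the same cell types, from lists other than the 30, were mostly higher in females as well. Over the 4 sex comparisons, in which 23.6% of all tested genes were called higher and their median was 0.14, 13 of 15 further T genes were higher in females (median 0.58), with Thy1, a surface glycoprotein of T cells, at 1.16 (SE 0.09) and the chemokine receptor Cxcr3 at 0.99 (SE 0.08). Of 11 further NK genes 10 were (median 0.38), among them Ctsw, a cathepsin of cytotoxic cells, at 0.72 (SE 0.07). Of 20 further B genes 12 were (median 0.30), with Vpreb3 at 0.87 (SE 0.11) and Cd72, a B cell co-receptor, at 0.60 (SE 0.08). Of these NK genes Fasl, Klre1, Ifng, Il18r1 and Txk were well above background on 15, 17, 22, 32 and 36 arrays. Of the B genes Fcrl1, Cxcr5 and Siglecg were so on 15, 31 and 33. Whether such genes were kept through 1 sex only was not checked. The counts of NK and B genes higher in females may therefore include genes that were tested only through the females. Others of these lists were too dim to test, among them Klrc1, Klrg1 and Cd160 of NK cells and Cd27, Ctla4 and Foxp3 of T cells. In female Cont mice, where 2.98% of all tested genes were called lower in Pxr-/-, 2 of the 15 T genes and 1 of the 20 B genes were. Tcf7, a factor of T cell development, was lower by 0.58 (difference -0.58, SE 0.15, adjusted p = 0.0247), Icos, a T cell co-stimulator, stood at -0.63 (SE 0.17, adjusted p = 0.0291) and Bank1, a B cell scaffold, at -0.68 (SE 0.17, adjusted p = 0.0254), while 0 of the 11 NK genes were called.

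Markers of other cells of the liver differed by sex and genotype as well. Over the 4 sex comparisons, beside 23.6% of all tested genes and their median of 0.14, 13 of 14 macrophage and Kupffer cell genes were higher in females (median 0.62), 7 of 8 genes of leukocytes in general (0.56), 4 of 7 dendritic cell genes (0.47), 3 of 6 neutrophil genes (0.33), 7 of 10 genes of the sinusoidal endothelium (0.38) and 2 of 10 hepatocyte genes (0.06). Of 6 red cell and platelet genes 1 was higher and 1, Alas2 of haem synthesis in red cell precursors, was lower (-2.49, SE 0.06). The log2 of the summed macrophage genes was 13.83 to 16.47 (median 14.69) in males and 14.36 to 16.53 (median 15.24) in females, and of the leukocyte genes 12.14 to 13.08 (median 12.50) and 12.51 to 13.35 (median 12.89). All 14 macrophage and 8 leukocyte genes were tested, while genes too dim to test included Xcr1 of dendritic cells, Mmp9, Cxcr2, Ngp and Ltf of neutrophils and Itga2b of platelets. Retnlg and Mmp8 of neutrophils were tested with 26 and 28 arrays well above background. In Pxr-/- ATB mice, where 16 of the 25 lymphocyte genes were called higher in females, 0 of 14 macrophage genes were (median 0.14), 2 of 8 leukocyte genes (0.23) and 1 of 6 neutrophil genes (-0.18), beside 23.2% of all tested genes and their median of 0.17. In the other 3 comparisons 6 to 13 of the 14 macrophage genes were called higher. Male Pxr-/- ATB mice held the highest summed level of any male for the macrophage genes, 16.47 against a group median of 14.63. The same held for the leukocyte genes (13.08, median 12.47) and the neutrophil genes (10.63, median 9.58). The part of such high males in the small differences of that comparison was not tested.

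In female Cont mice the median genotype difference was wider for markers of macrophages, leukocytes and endothelium than for the lymphocyte genes, a contrast that was not tested. Beside 2.98% of all tested genes called lower and their median of -0.12, 9 of 14 macrophage genes were called lower in Pxr-/- mice (median -0.93), for example Vsig4, a complement receptor of Kupffer cells (-1.10, SE 0.24), and Clec4f, a Kupffer cell lectin (-0.76, SE 0.17). Pxr+/+ females had a summed level of 15.53 to 16.53 and Pxr-/- females one of 14.67 to 15.28, without overlap. Of the leukocyte genes 4 of 8 were called lower (median -0.66, summed level 13.00 to 13.35 and 12.51 to 13.19), of the endothelial genes 6 of 10 (median -0.57) and of the neutrophil genes 2 of 6, while 0 of 7 dendritic and 0 of 10 hepatocyte genes were. Their part in the lower Klrk1 of these mice was not tested.

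**Figure D5:**
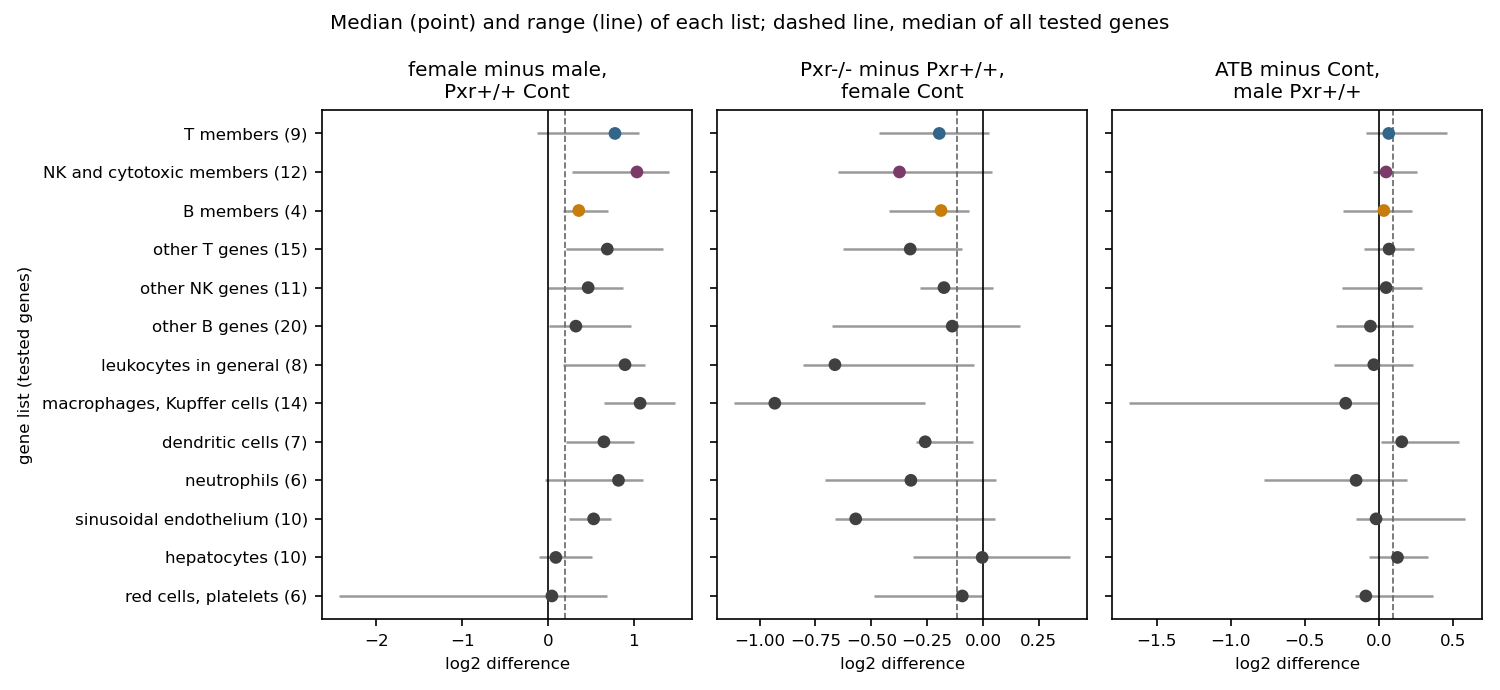
Median (point) and range (line) of the log2 difference of each gene list in 3 comparisons, with the number of tested genes in brackets and the median of all tested genes as a dashed line. In Pxr+/+ Cont mice (left) the NK and cytotoxic genes (1.04) and the macrophage genes (1.08) lie farthest above that median of 0.20, in female Cont mice (middle) the macrophage genes lie lowest at -0.93, and with ATB in male Pxr+/+ mice (right) the 3 member classes lie at 0.03 to 0.07.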

How the data were processed

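RNA of 47 mouse livers, 1 array per mouse, was measured on 1-colour Agilent SurePrint G3 Mouse GE v2 8x60K arrays, which limits precision by the number of arrays. The authors deposited scanner files with spot intensity values from Agilent Feature Extraction 10.10.1.1, not normalized between arrays (probe coordinates mm9), and a table of log2 values that they had filtered, corrected for wash batch and normalized with CrossNorm. Here log2 of the deposited median intensity was taken, outlier-flagged spots were left out, spots of a probe were averaged, and a probe was kept where 5 or more arrays of some group read it well above background. The wash batch effect was removed with group means kept, and CrossNorm was rebuilt as an average of 300 draws, since how the authors stacked the groups and filtered probes is not given in the sources used here. A spot missing on an array was left out of the fit (163 values over all tested probes).

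A limma 3.58.1 model (R 4.3.3) of the 8 groups with wash batch gave 12 pair comparisons, 3 averages over 4 of them and 6 differences between effects, with p-values adjusted (Benjamini-Hochberg) over all tested probes. A gene was represented by its brightest probe. The pipeline was tested on simulated data. Mice are separate animals, but p-values measure the spread between these samples.

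All 30 genes were accounted for. Those called, or whose groups did not overlap, were given with values in every group, the others by range, and from each other list at most 3 examples were taken by adjusted p. The members and lists were chosen with earlier results of these data known, so no list was tested as a set. Alternatives were other normalizations and filters, the deposited log2 table, the slide or replicate number as a block, only the groups compared, the mean of a gene's probes, and leaving out each array.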

Additional observations from a re-analysis of the deposited data

Results flagged for a closer look

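Of 224 sets of 5 or 6 values (each tested gene and class mean in each group), 9 held a mouse set apart from the rest of its group by a gap that was large against the range, where chance gives about 1 in 20. Among males, Klrb1c read 6.41 in Pxr-/- Cont replicate 2 against 4.85 to 4.98 in the others (gap 0.915 of the range), Gzma read 7.39 in Pxr-/- Cont replicate 3 against 6.26 to 6.35 (0.920) and 7.53 in Pxr+/+ ATB replicate 4 against 6.74 to 6.96 (0.719), Il7r read 5.61 in Pxr-/- Cont replicate 6 against 6.07 to 6.17 (0.825), and Pax5 read 5.04 in Pxr+/+ Cont replicate 1 against 5.42 to 5.62 (0.654).

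Among females, Prf1 read 7.32 in Pxr-/- Cont replicate 5 against 6.46 to 6.77 (0.638) and Ms4a1 read 5.44 in Pxr-/- Cont replicate 1 against 6.00 to 6.24 (0.695). In Pxr-/- ATB replicate 6, Ms4a1 read 6.62 against 5.91 to 6.18 (0.628) and the mean of the NK and cytotoxic genes 7.14 against 6.62 to 6.79 (0.669). The 5 values from Pxr-/- Cont mice belonged to 5 different mice.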

How the results depend on the processing

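The counts of members called for sex moved by less than 1.5 times under every alternative, and no called difference reversed. The 1 genotype call in female Cont mice became 0 under quantile normalization, normexp with quantile normalization, processed signals, spike-in scaling and the fit of only the groups compared, and the 3 calls over the genotype comparisons became 0 under those settings other than the last. They became 2, without Klrk1, in the authors' table and with the mean of a gene's probes. The 0 antibiotic calls became 1 (Cd4, higher) over the comparisons together with probes above background on all 47 arrays, with slide as a block and with the replicate block. Leaving out 1 array gave 0 to 3 genotype calls in female Cont mice (3 without Pxr-/- replicate 3, adding Ccl5 and Gzmb), 2 to 5 over the genotype comparisons (5 without female Pxr+/+ ATB replicate 4) and 0 to 1 over the antibiotic ones (1, Cd4, without male Pxr+/+ Cont 4, Pxr+/+ ATB 4, Pxr-/- Cont 4 or Pxr-/- ATB 1, or female Pxr+/+ Cont 4, Pxr+/+ ATB 2 or 6, Pxr-/- Cont 2, 3 or 4 or Pxr-/- ATB 5).

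The median sex difference of the T genes fell under normexp with quantile normalization to 0.39 in Pxr+/+ Cont, 0.44 in Pxr-/- Cont, 0.57 in Pxr+/+ ATB, 0.34 in Pxr-/- ATB and 0.47 over all 4, and under quantile normalization to 0.54 in Pxr+/+ Cont and 0.37 in Pxr-/- ATB. That of the NK and cytotoxic genes became 0.55, 0.52, 0.53, 0.35 and 0.48 under normexp in the same order, 0.79 under quantile normalization in Pxr+/+ Cont and 1.16 with processed signals in Pxr+/+ ATB. That of the B genes became 0.067, 0.060 and 0.073 under normexp in Pxr+/+ Cont, Pxr-/- ATB and over all 4, and 0.13 under quantile normalization in Pxr+/+ Cont. The cause was not tested.

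Of 90 calls of a member in a comparison, 81 held without any 1 array. Beside those of Cd79b and of Klrk1 in female Cont mice, given above, the lost calls were Cd4 over the sex comparisons without male Pxr+/+ Cont replicate 4, Pxr+/+ ATB 5 or 6, Pxr-/- Cont 4 or Pxr-/- ATB 2 or 5, or female Pxr+/+ Cont 5, Pxr+/+ ATB 2 or 6, Pxr-/- Cont 1 or 5 or Pxr-/- ATB 5 or 6 (-0.26 to -0.21). In Pxr-/- ATB the sex call of Xcl1 was lost without male replicate 2, 3, 5 or 6 or female 3, 4 or 6 (0.34 to 0.45), of Klrb1c without male 2 or 5 or female 6 (0.46 to 0.55) and of Cd2 without male 5 (0.43), as was Cd2 in Pxr-/- Cont without female 3 (0.53) and Klrb1c in Pxr+/+ ATB without female 1 or 6 or male 3 (0.55 to 0.60). Klrk1 over the genotype comparisons was lost without male Pxr-/- ATB replicate 5 (-0.26).

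Of 161 same-numbered pairs of mice from different groups 52 had an r above 0.1 (range -0.37 to 0.56, median 0.01). These values kept the wash batch effect, and pairs with different numbers were not compared. They therefore do not settle whether replicate numbers pair the mice. Cd4 was no longer called for sex with the replicate block, slide as a block, spike-in scaling or the mean of its probes, and Ms4a1 was not with the mean of its probes (0.26). With the replicate block the other counts of calls kept within 1.5 times apart from the Cd4 call for antibiotics above. Dim probes limit Cd8a, Eomes, Ncr1, Cd79a and Blk.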
